A study of Rattus norvegicus with 6 samples.

Results

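The interleukin-1 (IL-1) family and the inflammasome were followed in rat lung after inhalation of particles, through 10 genes: the cytokines Il1a, Il1b, Il18 and Il33, the receptor antagonist Il1rn, the receptors Il1r1, Il1r2 and Il1rl1, and the inflammasome genes Nlrp3 and Casp1. They were chosen by name from the probes of a whole-genome array, with older names accepted: Nlrp3 is listed on the array as Cias1 and Il33 under a provisional name. The 10 genes had 16 probes among the 41012 of the array, and 15 of these were well above background on every array of at least 1 group. Each gene had at least 1 such probe, out of 25224 features tested.

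The rats were male Wistar rats, 9 weeks old at the start. They breathed ultrafine nickel oxide (NiO, the positive control of the study), C60 fullerene (a cage of carbon atoms) or clean air (control) in whole-body chambers for 6 hours a day, 5 days a week, over 4 weeks. Right lungs, perfused with saline, were taken 3 days or 1 month (33 days) after the last exposure, and total RNA of the whole tissue was hybridised to 1-colour arrays. The arrays compared were 4 of NiO, 2 of C60 and 3 of control lungs at 3 days, and 4 of each group at 1 month. The labels give n = 4 for most groups but do not say outright that each array is 1 rat.

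IL-1 alpha and IL-1 beta signal through the receptor encoded by Il1r1. The antagonist encoded by Il1rn occupies that receptor without signalling, and the receptor encoded by Il1r2 binds IL-1 as a decoy. IL-1 beta and IL-18 are made as inactive precursors that caspase-1 (Casp1) cuts once an inflammasome such as the one built on NLRP3 has formed, so that transcript levels do not show how much active cytokine there is. IL-33 is stored in the nucleus of lung epithelial and endothelial cells, acts as an alarm signal when cells are damaged, and signals through the receptor ST2, encoded by Il1rl1.

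The probes below carry the results of Il1r2, Il18 and Il33. They are 60-base sequences from the scanner files, written 5′ to 3′. Positions are those the array gives for rat build rn4, with no rn4 annotation used here.
Il1r2 probe A_42_P820657, chr9:39316654-39319494, plus strand: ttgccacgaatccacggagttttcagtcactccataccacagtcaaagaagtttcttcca
Il18 probe A_44_P161233, chr8:53943005-53943064, plus strand: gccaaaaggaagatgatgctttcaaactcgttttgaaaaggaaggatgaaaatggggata
Il18 probe A_44_P531414, chr8:53927434-53927493, plus strand: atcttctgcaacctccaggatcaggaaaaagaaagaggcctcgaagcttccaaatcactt
Il33 probe A_44_P1029131, chr1:233684152-233684211, plus strand: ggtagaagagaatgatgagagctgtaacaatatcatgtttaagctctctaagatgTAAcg
The Il1r2 probe covers a genomic span of 2841 bases, longer than its 60 bases. In the Il33 probe the capitals mark a TAA at base 56 that ends the frame starting at the second base. The other Il33 probe, A_44_P310596 at chr1:233685259-233685318, starts 1048 bases downstream of the end of this one on the same strand. It also holds a TAA, at base 13, so a TAA does not set the 2 probes apart. The 2 Il33 probes gave opposite results at 3 days, as described below, and the 2 Il18 probes gave the same.

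Signals are log2 of the processed spot signal relative to the 75th percentile of the array, so that 0 is the level of a probe at that percentile. Signals of different probes are not compared with each other. The marker sums below do add linear signals of different probes, so the brightest probes weigh most in them. Calls rest on 1 limma fit over the 6 groups, with p-values adjusted by Benjamini-Hochberg over all 25224 features and a threshold of 0.05, and errors of log2 folds are standard errors (SE). The p-values measure the spread between arrays. The number of arrays limits the precision. All arrays of a group shared a slide that no other group used, and the effect of the group cannot be told apart from that of its slide. The 3-day and 1-month slides were scanned on different days, so time and scan day cannot be told apart. In whole lung, fewer cells of a type and less RNA per cell cannot be told apart either. The share of spots well above background ran from 57.4% to 78.3% over the arrays. NiO arrays 2 and 3 at 3 days had the lowest 75th percentiles, 372 and 336, against 541 and 593 on the other NiO arrays of that time. The 2 C60 arrays at 3 days had the lowest shares of spots above background, 57.4% and 60.7%. All 9 alveolar type II markers were measured. So were all 9 endothelial and all 8 mast cell markers, and this alone does not identify the tissue.

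**Figure D1:**
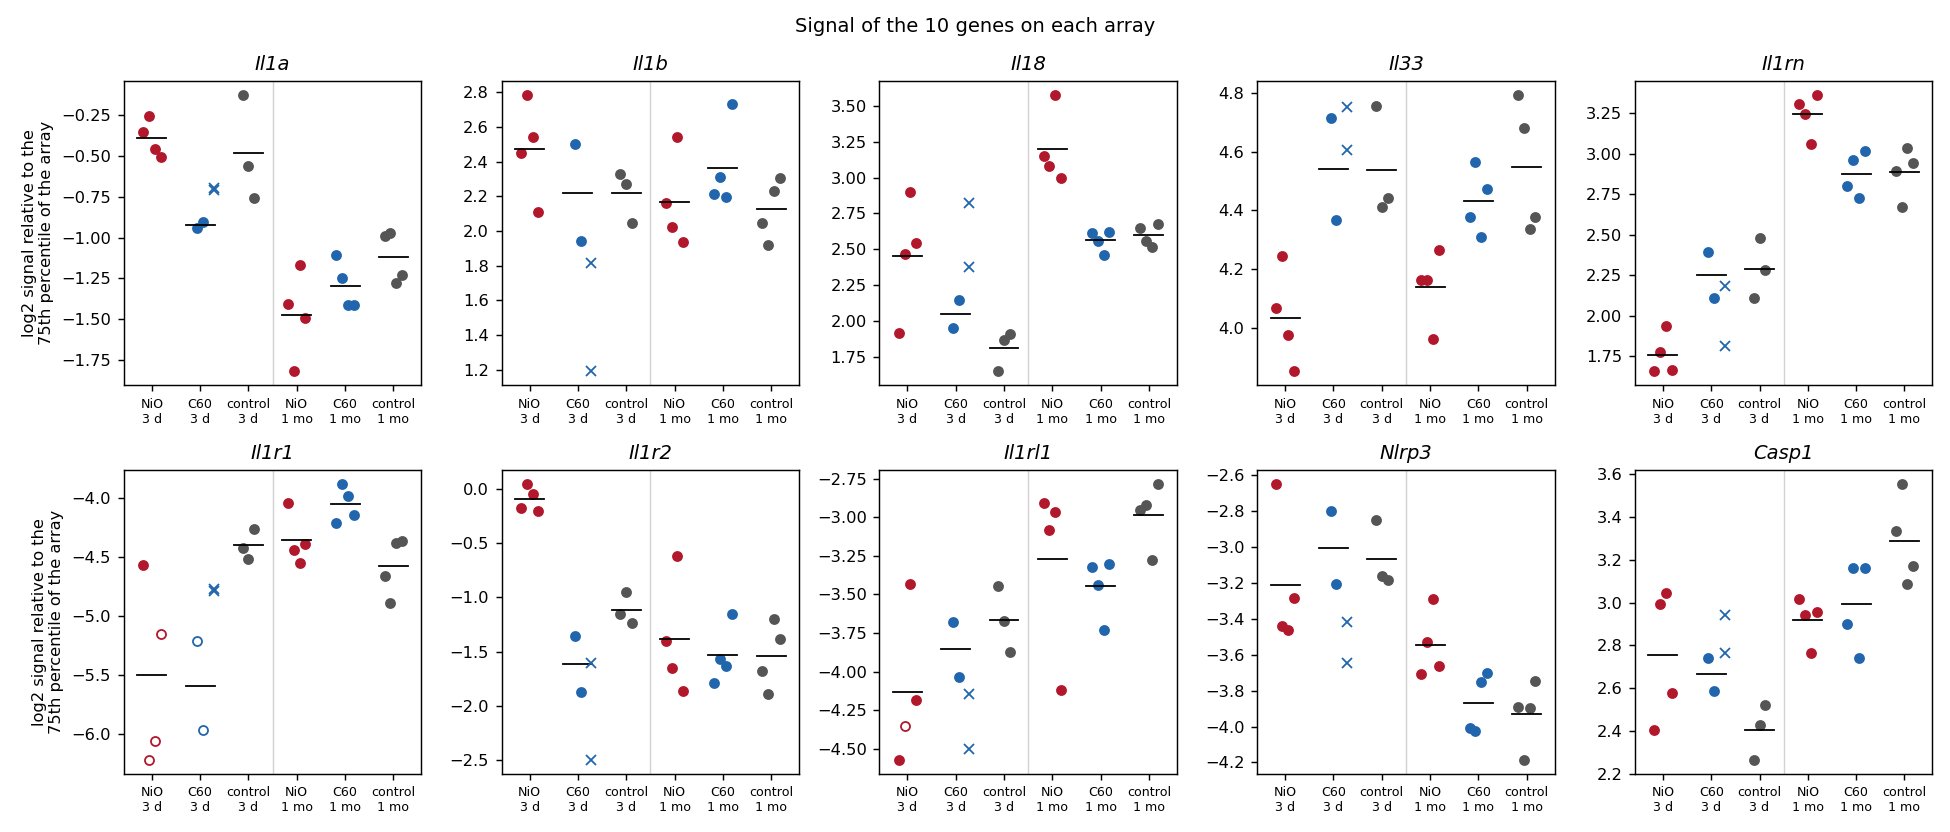
Signal of each gene on each array (vertical axis, log2 relative to the 75th percentile of the array) by group (horizontal axis), with a line at the group mean. Open circles were not well above background, and crosses are the C60 arrays at 3 days that were not compared. Il1r2 stands apart on the 4 NiO arrays at 3 days (-0.21 to 0.05), and Il18 on the 4 NiO arrays at 1 month (2.99 to 3.57).

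At 3 days after NiO, 5 of the 10 genes were called, against 18.8% of all features: Il1r2 and Il18 were higher (11% of features were called higher), and Il1rn, Il33 and Il1r1 were lower (7.81% were called lower), with reservations for Il33 and Il1r1 given below. Fitting only the groups compared, with fewer arrays to set the spread, left the call of Il1r2 alone. The largest rise was that of the decoy receptor Il1r2, 2.02-fold. The IL-1 cytokines Il1a and Il1b and the inflammasome genes Nlrp3 and Casp1 did not pass the test. The median log2 fold of the 10 genes was -0.03, beside 0.04 over all features.

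Il1r2, the decoy receptor, had -0.18, 0.05, -0.05 and -0.21 on the NiO arrays at 3 days, against -1.15, -0.95 and -1.24 on the control arrays. Every NiO array lay above every control array, and the 4 NiO arrays were close together. The log2 fold was 1.02 ± 0.24 with an adjusted p of 0.00885. Without NiO arrays 2 and 3 it was 0.92 with an adjusted p of 0.0865. The C60 arrays had -1.36 and -1.87, below both other groups. Against C60, NiO was higher by a log2 fold of 1.52 ± 0.27, adjusted p = 0.00317, which became 1.26 with an adjusted p of 0.0584 without C60 array 2.

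Il1r2 is a known product of neutrophils and of some macrophages, and the neutrophil markers were therefore read beside it. Of 12 neutrophil markers 7 were measured and 1, Cd177, a surface protein of neutrophils, was called at 3 days, against 18.8% of all features. The summed level of the 7, in multiples of the 75th percentile, was 20.7 to 25.7 on the NiO arrays against 4.97 to 7.98 on the control arrays, and no marker of the 7 was without an array above background in any group. Leaving out Cd177, the sum was 4.45 to 5.92 on the NiO arrays against 4.13 to 7.06 on the control arrays, so that the groups overlapped. The macrophage sum, over 8 of 11 markers, was 32.1 to 43.7 against 30.8 to 32.8. These sums describe marker RNA and are no test of cell numbers. The part of cell numbers in the rise of Il1r2 was not tested.

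At 1 month Il1r2 was no longer apart. The NiO arrays had -1.40, -1.65, -0.62 and -1.86, against -1.68, -1.89, -1.20 and -1.39 on control arrays, a log2 fold of 0.15 ± 0.22 with a 95% interval from -0.32 to 0.62. The single high value, -0.62, was on NiO array 3, which also had the highest neutrophil and macrophage sums of its group, 25.4 and 68.0. The NiO effect at 1 month minus that at 3 days was -0.86 ± 0.33 (adjusted p = 0.0473). This difference was near the threshold and lost its call in 22 of the alternatives given in the closing section, among them the leaving out of single arrays.

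Il18, whose product drives interferon gamma production with IL-12, rose at both times after NiO. At 3 days the NiO arrays had 1.92, 2.47, 2.90 and 2.54, against 1.65, 1.87 and 1.91 on the control arrays. The lowest NiO array lay just above the highest control array. The log2 fold was 0.64 ± 0.17 (adjusted p = 0.0181). It was 0.56 with an adjusted p of 0.0854 without control array 1, 0.50 with 0.0594 without NiO array 3, 0.42 with 0.201 without NiO arrays 2 and 3, and 0.47 with 0.0677 when arrays were scaled by their median.

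At 1 month the separation of Il18 was wider. The NiO arrays had 3.15, 3.08, 3.57 and 2.99, against 2.62, 2.56, 2.46 and 2.62 on C60 arrays and 2.65, 2.56, 2.52 and 2.67 on control arrays. All 4 NiO arrays lay above all 8 others. The log2 fold over control was 0.60 ± 0.16, adjusted p = 0.0114, and leaving out any single array kept the call (adjusted p of 0.0448 or less). Over C60 it was 0.64 ± 0.16, adjusted p = 0.0665. The second Il18 probe gave 0.68 ± 0.17 at 3 days (adjusted p = 0.0140) and 0.96 ± 0.16 at 1 month (adjusted p = 0.00084), both called and in the same direction. The size of the NiO effect on Il18 did not pass the test for a difference between the times (-0.04 ± 0.24, with a 95% interval from -0.54 to 0.45).

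Macrophage markers were higher in the same lungs at 1 month: 4 of 8 measured rose and none fell, against 11.9% and 18.9% of all features. Their summed level was 43.1 to 68.0 on NiO arrays against 31.4 to 34.3 on control arrays, without overlap. Ranked by Pearson correlation with Il18 over the 21 arrays, the nearest named genes were Ifi30 (0.95), which encodes a lysosomal thiol reductase, Blvra (0.94), which encodes biliverdin reductase, and Prdx5 (0.93), which encodes a peroxiredoxin. These correlations join groups, slides and scan days. For Il1r2 they were Hk2 (0.89), which encodes a hexokinase, and the chemokines Ccl22 (0.88) and Ccl17 (0.85). The part of cell numbers in the rise of Il18 was not tested.

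Il1rn, the receptor antagonist, was called in opposite directions at the 2 times. At 3 days it fell, with 1.66, 1.77, 1.94 and 1.67 on NiO arrays against 2.39 and 2.11 on C60 arrays and 2.11, 2.48 and 2.28 on control arrays. Every NiO array was below every array of both other groups. The log2 fold was -0.53 ± 0.12 against control (adjusted p = 0.00799) and -0.49 ± 0.14 against C60 (adjusted p = 0.0411). The call against C60 was lost in 10 of the 21 fits that left out 1 array. Among them were those without C60 array 1 (adjusted p = 0.378) or array 2 (0.0629) of that time. Leaving out C60 array 1 or 2 of 1 month (0.053 and 0.0512) also lost it, which changes only the shared spread. The call was lost too with no filter on dim probes (0.0641), the mean of both probes (0.273) and only the groups compared (0.396).

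At 1 month Il1rn was higher after NiO, with 3.30, 3.24, 3.06 and 3.36 on NiO arrays, 2.80, 2.96, 2.73 and 3.02 on C60 arrays, and 2.90, 2.67, 3.04 and 2.94 on control arrays. The lowest NiO array lay just above the highest of the others. The log2 fold over control was 0.36 ± 0.11, adjusted p = 0.0269, and the call was lost without control array 2 (0.28, adjusted p = 0.0934). Leaving out NiO array 1, 2 or 4 gave adjusted p values of 0.064, 0.058 and 0.0697. The NiO effect differed between the times by 0.89 ± 0.17 (adjusted p = 0.00206). The dimmer second probe of Il1rn gave -0.67 ± 0.29 at 3 days and 0.16 ± 0.27 at 1 month, neither called, so the calls of Il1rn rest on 1 probe. The mean of both probes gave 0.26 at 1 month, not called (adjusted p = 0.268).

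**Figure D2:**
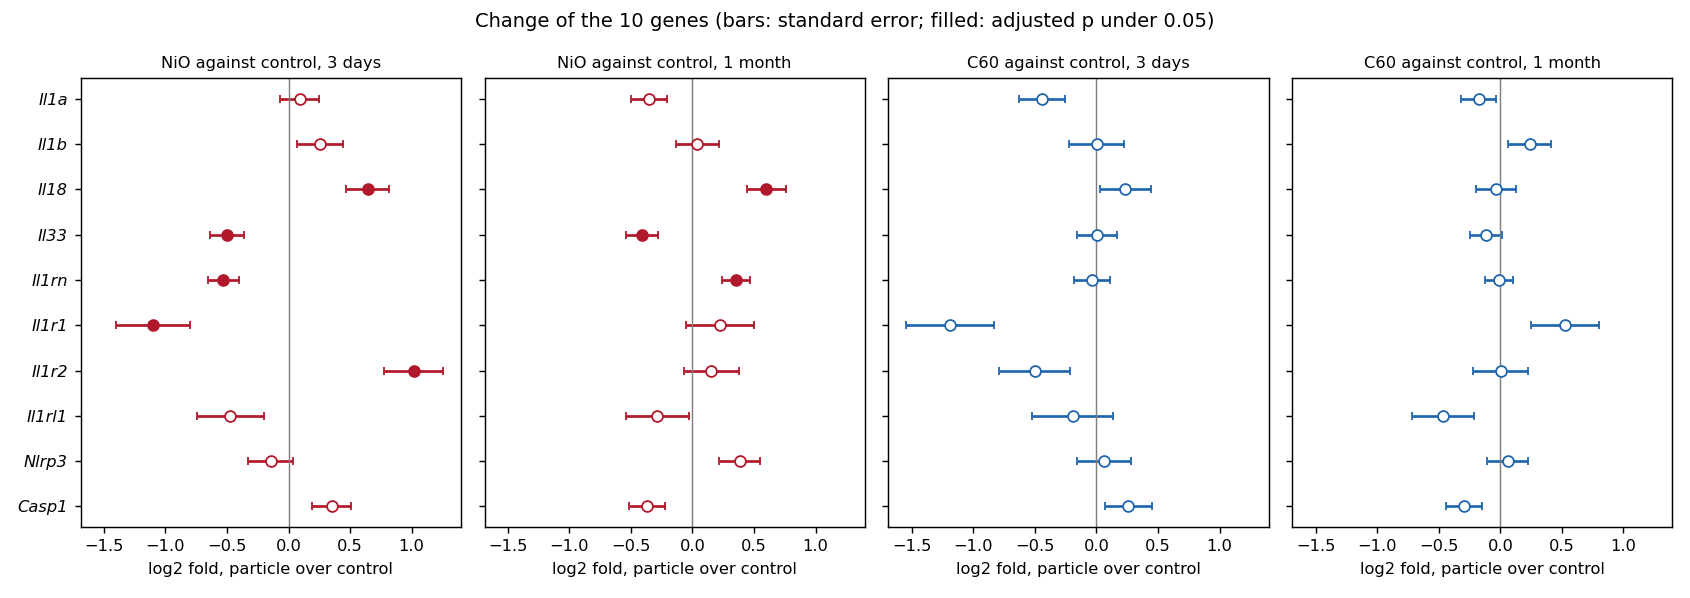
Log2 fold of each gene, particle over control (horizontal axis), in the 4 comparisons, with standard errors as bars and filled points where the adjusted p was under 0.05. NiO has 5 filled points at 3 days and 3 at 1 month, and C60 has none. The point of Il1r1 for C60 at 3 days is drawn as fitted, from C60 signals not above background, and is not read as a fold.

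For Il33 the 2 probes disagreed. On the downstream probe, the brighter one and therefore the one standing for the gene, the NiO arrays at 3 days had 4.07, 4.24, 3.97 and 3.85, against 4.72 and 4.37 on C60 arrays and 4.75, 4.41 and 4.44 on control arrays. All NiO arrays were below all others, and the log2 fold against control was -0.50 ± 0.14 (adjusted p = 0.0195). On the upstream probe, printed above, the NiO arrays had -0.47, -0.29, -0.16 and -0.17, the C60 arrays 0.37 and -0.26, and the control arrays -0.95, -1.21 and -0.90. Here both particle groups were above the control arrays, by 0.75 ± 0.13 for NiO (adjusted p = 0.00133) and by 1.07 ± 0.16 for C60 (adjusted p = 0.000446). The mean of both probes gave 0.12 for NiO at 3 days, not called. A direction for Il33 at 3 days is therefore not given.

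At 1 month the 2 Il33 probes pointed the same way after NiO. The downstream probe had 4.16, 4.16, 3.96 and 4.26 on NiO arrays against 4.79, 4.68, 4.34 and 4.38 on control arrays, a log2 fold of -0.41 ± 0.13 (adjusted p = 0.0235). The call was lost with any of control arrays 1 and 2 or NiO array 3 left out (adjusted p of 0.0733, 0.0707 and 0.0758), and with scaling by the array median (-0.07). That scaling moved the median of all features at this time to 0.21, against -0.12 in the scaling used. The upstream probe had 0.74, 0.75, 0.70 and 0.85 on NiO arrays against 1.13, 0.90, 0.93 and 0.99 on control arrays. These groups did not overlap, and the log2 fold of -0.23 ± 0.12 was not called (adjusted p = 0.166). Endothelial markers, which share that cell source, had sums of 326 to 364 on NiO arrays against 387 to 499 on control arrays at 1 month. Of these 9 markers 2 fell, near the 18.9% of all features called lower, and their median log2 fold was -0.09 beside -0.12. At 3 days after NiO 4 of the 9 fell, against 7.81% of features, and their median was -0.40 beside 0.04. The endothelial sums at 3 days overlapped, 287 to 399 on NiO arrays against 354 to 388 on control arrays. Of the 9 alveolar type II markers, an epithelial list, 3 rose and none fell at 1 month, against 11.9% and 18.9% of all features. Their sums at 1 month were 1255 to 1481 on NiO arrays against 1246 to 1495 on control arrays. The part of these cells in the Il33 values was not tested.

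**Figure D3:**
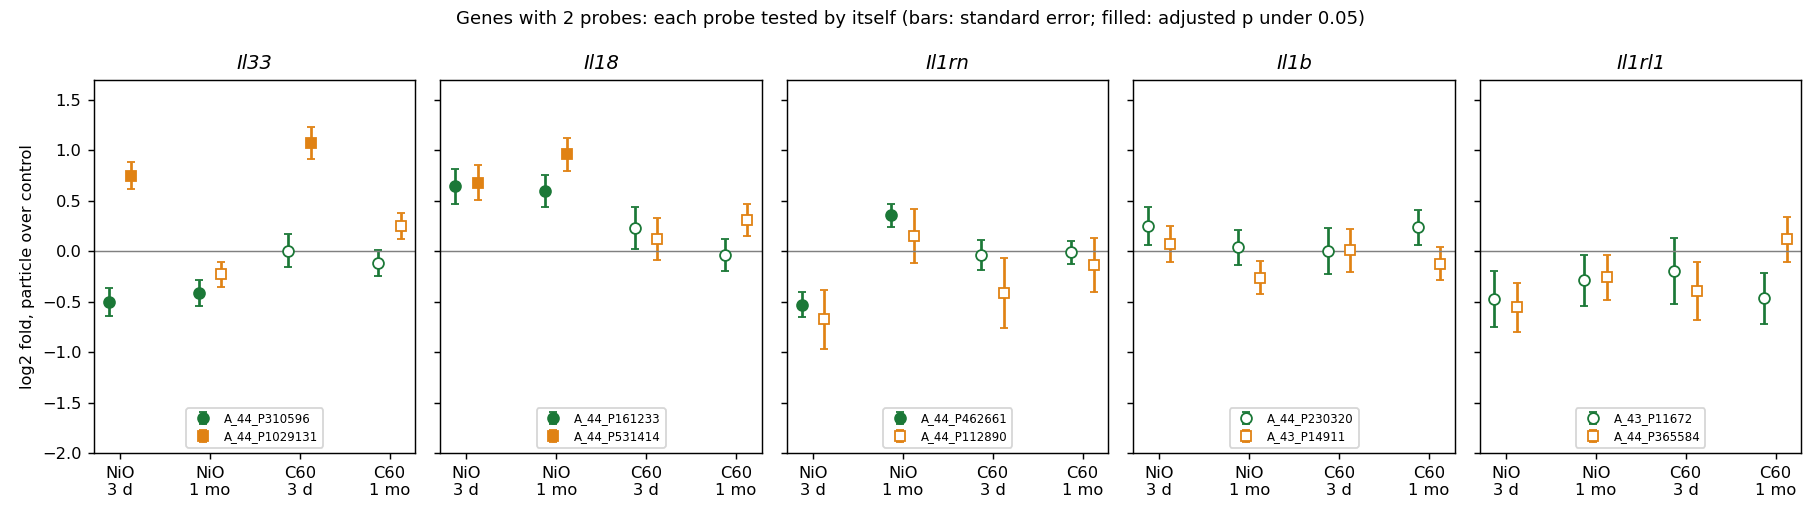
Log2 fold, particle over control (vertical axis), of each probe of the 5 genes that had 2 probes passing the filter, tested one by one, with standard errors as bars. The Il33 probes lie on opposite sides of 0 at 3 days after NiO (-0.50 and 0.75), while the Il18 probes lie together (0.64 and 0.68). The second Il1rn probe was not above background on the C60 arrays at 3 days, and that point is not read as a fold.

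The signalling receptor Il1r1 was near background. On its measured probe at 3 days the NiO arrays had -4.57, -6.22, -6.06 and -5.15, of which 1 was well above background, the C60 arrays -5.21 and -5.96, of which none was, and the control arrays -4.42, -4.51 and -4.26, all 3 well above background. The log2 fold of NiO over control was -1.10 ± 0.30 (adjusted p = 0.0185). With another background correction (normexp) it was 0.03, and it lost its call without control array 1 or 3 or NiO array 2 or 3. The C60 arrays have only a bound on this probe, which leaves no fold for C60. At 1 month all 12 arrays were above background, with -4.04 to -4.55 after NiO against -4.36 to -4.89 in control lungs, a log2 fold of 0.22 ± 0.28, not called. The other Il1r1 probe did not pass the filter.

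Il1rl1, which encodes the IL-33 receptor ST2, was not called in any particle comparison, on either of its probes. The probe standing for the gene, at chr9:39617225-39617284, had -4.57 to -3.43 after NiO against -3.87 to -3.44 in control lungs at 3 days, and -4.12 to -2.90 against -3.28 to -2.78 at 1 month. The probe at chr9:39619275-39620742 gave -0.55 ± 0.24 after NiO at 3 days (adjusted p = 0.109), with all 4 NiO arrays below the 3 control arrays.

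Il1b, the main secreted IL-1, had 2.45, 2.78, 2.54 and 2.11 on NiO arrays against 2.33, 2.27 and 2.05 on control arrays at 3 days, and the groups overlapped. The 95% interval of the log2 fold ran from -0.14 to 0.65, and at 1 month from -0.32 to 0.40. Its second probe gave 0.07 ± 0.18 and -0.26 ± 0.17. Il1a, the membrane-bound and intracellular IL-1, had -0.51 to -0.26 on NiO arrays against -0.76 to -0.12 on control arrays at 3 days. At 1 month Il1a had -1.82 to -1.17 against -1.28 to -0.97, a log2 fold of -0.35 ± 0.14 (adjusted p = 0.0693), not called. It was called with normexp (-0.40, adjusted p = 0.0136) and without NiO array 3 of 1 month (-0.46, adjusted p = 0.0375). Leaving out control array 1 of 3 days changed only the shared spread and gave an adjusted p of 0.0461. A change of Il1b or Il1a by a full log2 unit lay outside these intervals at 3 days, for Il1a with an interval from -0.24 to 0.42.

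Casp1, the protease that matures IL-1 beta and IL-18, had 2.41, 3.00, 3.05 and 2.58 on NiO arrays against 2.26, 2.43 and 2.52 on control arrays at 3 days, overlapping by 1 array. The log2 fold was 0.35 ± 0.16 (adjusted p = 0.123), and without NiO array 1 it was 0.47 with an adjusted p of 0.023. At 1 month it had 3.02, 2.94, 2.76 and 2.96 on NiO arrays against 3.34, 3.56, 3.09 and 3.17 on control arrays. Those groups did not overlap, as for 37.1% of all features, and the log2 fold of -0.37 ± 0.15 was not called (adjusted p = 0.0649). It was called with quantile normalization (-0.35, adjusted p = 0.0346), with normexp (-0.49, adjusted p = 0.0156) and without control array 3 (-0.43, adjusted p = 0.0463). Leaving out NiO array 1 of 3 days, or arrays 2 and 3 of that time, changed only the shared spread and gave adjusted p values of 0.0368 and 0.0254. The NiO effect on Casp1 at 1 month was lower than at 3 days by -0.72 ± 0.22 (adjusted p = 0.0175). Scaling by the array median gave -0.20, not called, and leaving out NiO arrays 2 and 3 at 3 days gave -0.45, not called.

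Nlrp3, the sensor that starts inflammasome assembly, was dim but above background on all 21 arrays. It had -2.65, -3.44, -3.46 and -3.29 on NiO arrays against -2.85, -3.16 and -3.19 on control arrays at 3 days, overlapping. At 1 month it had -3.71, -3.53, -3.29 and -3.66 against -3.89, -4.19, -3.90 and -3.75, with no overlap. The log2 fold at 1 month was 0.38 ± 0.17 (adjusted p = 0.0928), and it was called with quantile normalization (0.86) and with scaling by the array median (0.72).

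At 1 month after NiO, 3 of the 10 genes were called, against 30.9% of all features. Of the 3, 2 were higher (11.9% of features) and 1 lower (18.9%). Of the 10, 4 showed a NiO effect that differed between the times (Il1rn, Casp1, Il1r1 and Il1r2), against 37.5% of all features. The arrays of NiO and control did not overlap for 5 of the 10 genes at 3 days and 5 at 1 month, against 23.1% and 37.1% of all features. Those of C60 and control did not overlap for 5 at 3 days and 2 at 1 month, against 45% and 27.7%. Those of NiO and C60 did not overlap for 4 at 3 days and 3 at 1 month, against 25.3% and 12.4%.

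C60 changed none of the 10 genes by the limma test at either time, on the probe standing for each gene. The share of all features called, at an adjusted p under 0.05, was 4.93% at 3 days and 19.8% at 1 month. At an unadjusted p under 0.05, 2 of the 10 (Il1a and Il1r1) passed at 3 days and none at 1 month. Counts at an unadjusted p have no share of all features to stand beside them here. At 1 month the log2 folds of C60 over control ran from -0.46 for Il1rl1 to 0.52 for Il1r1. The 95% intervals at 1 month were -0.37 to 0.30 for Il18, -0.25 to 0.23 for Il1rn and -0.47 to 0.47 for Il1r2. At 3 days, with 2 arrays, they were wider, -0.20 to 0.67 for Il18, -0.35 to 0.27 for Il1rn and -1.11 to 0.11 for Il1r2. The value of Il1r1 at 3 days sets control arrays against C60 signals that were not above background. For the same reason no difference of the C60 effect between the times is given for Il1r1. Of the other genes limma called none for that difference, against 10.4% of features, and 1, Casp1, had an unadjusted p under 0.05. Between NiO and C60, 2 of the 10 genes were called at 3 days (7.72% of features) and none at 1 month (1.21%). At 1 month 3 of the 10 had an unadjusted p under 0.05: Il18, Il1rn and Il33.

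The promoters of Il1rn and Il18, both called at both times on the probe standing for the gene, are shown for the regulatory sequence around them. They are the 250 bases before the RefSeq transcript start in build GRCr8, plus strand, and 9 of the 10 genes had an entry (Il1r2 is named only).
Il1rn promoter, chr3:27520072-27520321: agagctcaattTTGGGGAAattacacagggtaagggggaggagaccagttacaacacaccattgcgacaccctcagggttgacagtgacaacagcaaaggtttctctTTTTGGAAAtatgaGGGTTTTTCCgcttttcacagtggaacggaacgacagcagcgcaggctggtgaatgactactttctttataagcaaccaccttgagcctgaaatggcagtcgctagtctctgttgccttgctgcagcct
Il18 promoter, chr8:59801822-59802071: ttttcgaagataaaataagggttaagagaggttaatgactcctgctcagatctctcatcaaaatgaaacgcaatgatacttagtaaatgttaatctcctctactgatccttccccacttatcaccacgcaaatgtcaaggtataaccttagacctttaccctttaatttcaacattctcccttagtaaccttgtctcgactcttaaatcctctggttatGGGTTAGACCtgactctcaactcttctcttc
The capitals mark matches, on either strand, to a kappa-B pattern (GGG, any 5 bases, CC), an AP-1 pattern (TGANTCA) or a C/EBP pattern (TTNNGNAA). The kappa-B match lies 129 bases before the start in Il1rn and 31 bases before it in Il18. Il1rn also holds C/EBP matches, 2 of which overlap each other. Il33, whose probes disagreed at 3 days, was also called at both times on the probe standing for it. It has 2 entries, not shown, and both hold a C/EBP match but no kappa-B or AP-1 match. With these the 9 genes have 10 entries. A kappa-B match was in 4 of the 10, an AP-1 match in 1 and a C/EBP match in 7. Over all 33469 promoters of the table, 42.3% held a kappa-B match, 6.34% an AP-1 match and 37.2% a C/EBP match. These matches are letters in a window, and nothing about binding follows from them.

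Of the genes that IL-1 is known to induce, 17 of 22 listed were measured. At 3 days after NiO 9 rose and 2 fell, against 11% of features called higher and 7.81% lower. The median log2 fold of the 17 was 0.68 beside 0.04 over all features. The neutrophil-attracting chemokine Cxcl2 averaged -0.32 ± 0.47 on NiO arrays and -3.66 ± 0.32 on control arrays (SD, n = 4 and 3 arrays), a log2 fold of 3.34 ± 0.35 (adjusted p = 8.59e-06). Lcn2, which encodes the iron-scavenging lipocalin-2, rose by 3.28 ± 0.38 (adjusted p = 2.21e-05), the monocyte chemokine Ccl7 by 3.00 ± 0.39 (adjusted p = 6.5e-05) and the chemokine Cxcl1 by 2.82 ± 0.30 (adjusted p = 9.29e-06). Those that fell were the cytokine Lif (-0.80 ± 0.27) and the adhesion molecule Icam1 (-0.42 ± 0.13). The 9 include Tnf, whose probe was not well above background on any control array and has no fold here. Its NiO signals gave no bound either, so its call is counted but not read as a rise. Other stimuli also induce these genes.

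At 1 month after NiO, 4 of the 17 rose and 3 fell, against 11.9% of features called higher and 18.9% lower. Their median was 0.11 beside -0.12 over all features. Lcn2 was still 2.23 ± 0.35 above control (adjusted p = 0.000557), followed by Cxcl3 (0.66), Csf2 (0.53) and Icam1 (0.37). The adhesion molecules Sele (-0.97) and Vcam1 (-0.62) and the prostaglandin synthase Ptgs2 (-0.71) were lower. The NiO effect of Cxcl2 was lower at 1 month than at 3 days by -3.24 ± 0.48 (adjusted p = 0.000324) and that of Cxcl1 by -2.70 ± 0.41 (adjusted p = 0.000393). That of Lcn2 differed by -1.05 ± 0.52, not called. C60 changed none of the 17 at 3 days by limma, against 4.93% of all features called. At an unadjusted p under 0.05 it was 1, with no share of all features given at that threshold. At 1 month after C60, Csf2 rose (0.42) and Sod2 fell (-0.47), 2 of the 17 against 19.8% of all features.

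**Figure D4:**
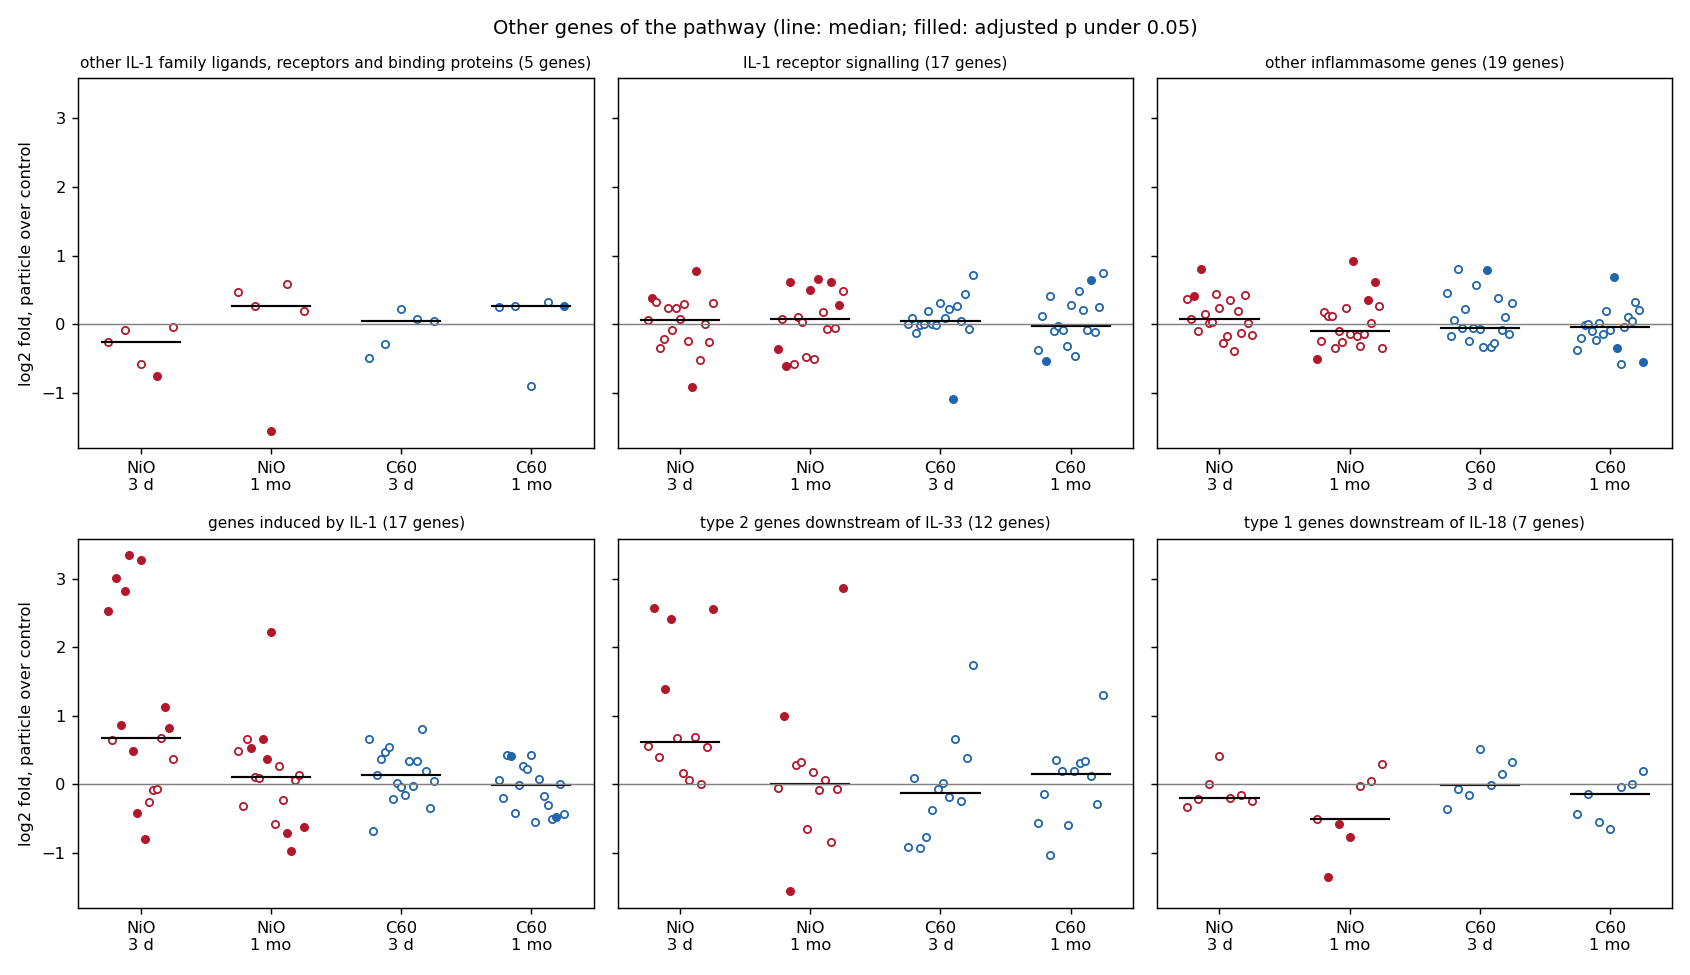
Log2 fold, particle over control (vertical axis), of the other genes of the pathway in 6 lists, for NiO and C60 at both times (horizontal axis), with a line at the median and filled points where the adjusted p was under 0.05. The IL-1-induced and type 2 lists reach 3.34 and 2.58 at 3 days after NiO, and Retnla reaches 2.87 at 1 month. Genes with no array above background in a group are drawn as fitted and not read as folds. Among them, after NiO, are Tnf and Il36b at 3 days and Il1rl2 at 1 month.

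The genes known to act downstream of IL-33 in type 2 responses were listed with it. Of 12 measured of 15, 4 rose at 3 days after NiO and none fell, against 11% of features called higher and 7.81% lower. The median log2 fold of the 12 was 0.62 beside 0.04. Arg1, which encodes arginase 1, rose by 2.58 ± 0.22 (adjusted p = 9.37e-07), the macrophage protein gene Retnla by 2.56 ± 0.73 (adjusted p = 0.0244), and the chemokines Ccl22 and Ccl17 by 2.41 ± 0.15 and 1.39 ± 0.21. At 1 month Retnla (2.87 ± 0.68) and Arg1 (1.00 ± 0.20) were higher and the eosinophil chemokine Ccl11 was lower (-1.55 ± 0.41), while Ccl22 and Ccl17 were not called. The 3 called of 12 at 1 month were a smaller share than the 30.9% of all features. Il4 and Il5 did not pass the filter on dim probes. C60 changed none of the 12 by limma at either time, against 4.93% of all features at 3 days and 19.8% at 1 month.

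Genes downstream of IL-18 in type 1 responses were listed beside it. None of the 7 measured was called by limma at 3 days after NiO, against 18.8% of all features called. None had an unadjusted p under 0.05 either. At 1 month 3 fell, against 18.9% of features called lower. They were the interferon-induced chemokine Cxcl9 (-1.35 ± 0.20, adjusted p = 0.000286), Ifng itself (-0.76 ± 0.24) and the granzyme gene Gzmb (-0.57 ± 0.20). The median of the 7 at 1 month was -0.51 beside -0.12 over all features.

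Among 17 genes of IL-1 receptor signalling, 3 were called at 3 days after NiO, a share close to the 18.8% of all features, and 7 at 1 month, where the background was 30.9%. At 3 days 2 rose and 1 fell: the nuclear regulator Nfkbiz (0.77 ± 0.13, adjusted p = 0.000667), the kinase gene Ikbkb (0.39 ± 0.10) and Nfkbia (-0.92 ± 0.20, adjusted p = 0.00548), which encodes the inhibitor that holds NF-kappa-B in the cytoplasm. Nfkbia also fell after C60 at 3 days (-1.09 ± 0.24, adjusted p = 0.0119), a comparison that shares its control arrays. At 1 month 5 rose and 2 fell after NiO, with the largest rises in Nfkb2 (0.66), Irak1 (0.62), Rela (0.61) and the adaptor Myd88 (0.50), and with Ikbkg (-0.61) and Chuk (-0.37) lower.

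Among 19 other inflammasome genes, 2 were called at 3 days after NiO and 4 at 1 month, both smaller shares than the 18.8% and 30.9% of all features. Their median log2 fold was 0.08 at 3 days and -0.10 at 1 month, beside 0.04 and -0.12 over all features. Those that rose at 3 days were Ctsb (0.80 ± 0.14, adjusted p = 0.00104), which encodes the lysosomal protease cathepsin B, and Casp4 (0.42 ± 0.12), the caspase that senses intracellular lipopolysaccharide. At 1 month Ninj1 (0.93), which acts in membrane rupture, Pstpip1 (0.61) and the ATP-gated channel gene P2rx4 (0.36) rose and the DNA sensor Aim2 (-0.50) fell. Pycard, which encodes the adaptor ASC, gave 0.01 ± 0.14 at 3 days and 0.26 ± 0.13 at 1 month, and the pore-forming Gsdmd gave 0.02 ± 0.17 and -0.10 ± 0.16, none called. After C60 the sensor gene Nlrc4 was higher at 3 days (0.79 ± 0.15) and lower at 1 month (-0.35 ± 0.12). Also at 1 month after C60, Ninj1 was higher (0.69 ± 0.16) and Txnip, which encodes a thioredoxin-binding protein, was lower (-0.55 ± 0.13).

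Of 13 further ligands, receptors and binding proteins of the family, 5 passed the filter, and 7 of the rest were below it. After C60, 0 of the 5 were called at 3 days, against 4.93% of all features. At 1 month after C60, 1 of the 5 was called, higher, against 19.8% of all features. The co-receptor Il1rap gave -0.08 ± 0.22 at 3 days and 0.27 ± 0.20 at 1 month after NiO, and Il18bp, which encodes the protein that neutralises IL-18, gave -0.26 ± 0.21 and 0.47 ± 0.20, none called. Il36b, a cytokine of the IL-36 branch, was at least 1.60-fold lower at 3 days (adjusted p = 0.0456). The bound sets the control mean against the lowest signal above background, since the probe was well above background on none of the 4 NiO arrays and on 2 of the 3 control arrays. The gene of its receptor, Il1rl2, was well above background at 1 month on none of the 4 NiO arrays, 3 of the 4 C60 arrays and all 4 control arrays. It passed the filter only through those control arrays, so no test is given for it.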

How the data were processed

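Per the file headers, Feature Extraction 9.5.3.1 (protocol GE1-v5_95_Feb07) turned each scan into a spot intensity, and the deposited processed intensity is background-subtracted. The deposited linear ratio table (particle over control) was used only to choose arrays: for C60 at 3 days the labels give 2 samples and 4 arrays came, and arrays 1 and 2 matched the authors' ratio column (median absolute log2 difference 0.00082, against 0.109 for all 4). Its centring stays unknown; its column medians ran from 0.986 to 1.133.

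Each value is the log2 processed signal after subtraction of the 75th percentile of its array. Control spots and outlier flags were left out, and spots of a probe averaged. A probe was kept if well above background on every array of 1 group (28677 of 41012 probes). The brightest probe stood for a gene, giving 25224 features. Names came from the files, through RefSeq tables of assembly GRCr8. Of all probes, 21474 had no gene name. Tests used limma 3.58.1 in R 4.3.3, 1 fit over 6 groups (15 residual and 2.31 prior degrees of freedom), with no covariate. The fit was tested on simulated data. A probe not above background in a group has a bound only.

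The 10 genes and all lists were chosen with earlier results of these data known, so none is independent evidence. Named from a list were the 4 largest called changes in each direction, plus Pycard, Il1rap, Gsdmd and Il18bp, and for each called member the 3 named genes best correlated with it, given here for Il18 and Il1r2. The alternatives were quantile and median scaling, normexp with offset 50, other filters, other probes, all 4 C60 arrays, only the groups compared, and leaving out each array. Leaving out NiO arrays 2 and 3 at 3 days together, and testing each probe by itself, were added after seeing the data.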

Additional observations from a re-analysis of the deposited data

Results flagged for a closer look

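The NiO effect at 1 month minus that at 3 days passed the test of the difference for 4 genes on the probe standing for each: Il1rn (0.89), Il1r1 (1.32), Il1r2 (-0.86) and Casp1 (-0.72). The value of Il1r1 rests on NiO arrays of 3 days of which 1 of 4 was well above background, and it was -0.087 under normexp. For the upstream Il33 probe, the NiO effect differed by -0.98 and the C60 effect by -0.82. On that probe the control arrays averaged -1.02 at 3 days and 0.99 at 1 month, while on the downstream probe they averaged 4.54 and 4.55. Time, scan day and slide cannot be told apart in these differences.

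One array lay far from the others of its group: Il1rl1 on NiO array 4 at 1 month had -4.12, against -3.08 to -2.90 on the other 3. This was 1 of 60 groups examined, and chance alone sets apart about 1 group in 20.

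The C60 arrays 3 and 4 at 3 days entered no comparison. Their mean exceeded the control mean by 0.89 on the upstream Il33 probe, by 0.79 for Il18 on the brighter probe and by 0.45 for Casp1. On each, both arrays lay above all 3 control arrays. Only this direction was searched, and no share of all features was counted for it. For Il18 the 2 compared C60 arrays had 1.95 and 2.15, and arrays 3 and 4 had 2.82 and 2.38. The compared C60 arrays and control did not overlap, in either direction, for 45% of features. Arrays 3 and 4 were also brighter, with 75th percentiles of 1431 and 975 against 652 and 689. Their shares of spots above background were 78.1% and 76.5%, against 57.4% and 60.7%.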

How the results depend on the processing

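No paired analysis was possible because the array numbers are positions on a slide that holds 1 group, and they carry no pairing. Of 3504 alternative values for 120 single-probe results, 3360 kept their direction and their side of the threshold, 76 lost a call, 64 gained one and 4 reversed. The reversed ones were Il1r1 after NiO at 3 days (0.026) and its NiO effect between times (-0.087) under normexp, and Il33 after NiO at 3 days (0.12) and its NiO effect between times (-0.44) with the mean of its probes, which disagree. The count of the 10 genes called after NiO at 3 days was 5 and fell to 1 with only the groups compared and to 2 without NiO arrays 2 and 3. At 1 month it was 3, and 5 with quantile normalization or normexp. Of the 3, Il1rn lost its call with the mean of probes (adjusted p = 0.268), and Il33 with only the groups compared (adjusted p = 0.0504). For C60 against control it was 0 at 3 days and 1 with the mean of probes or without NiO arrays 2 and 3; at 1 month it was 0, and 1 with quantile normalization, with normexp or without those arrays, and 2 with median scaling. For NiO against C60 it was 2 at 3 days, and 4 with normexp, 1 with no filter, with the mean of probes or without those arrays, 5 with all 4 C60 arrays and 0 with only the groups compared; at 1 month it was 0, and 1 with quantile normalization, normexp, the filter on every array or without those arrays. The NiO effect between times was called in 4 genes, and in 1 without those arrays. The C60 effect was called in 1, Il1r1, whose 3-day C60 signal was not above background and which the text does not count, in 0 with normexp or the filter on every array, and in 2 with all 4 C60 arrays.

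Leaving out 1 array at a time gave 2 to 6 genes for NiO at 3 days (2 without control array 1 or NiO array 3), 1 to 5 for NiO at 1 month (1 without control array 2, 5 without NiO array 1 at 3 days), 0 to 1 for C60 at 3 days (1 without NiO array 1, 2 or 3) and 0 for C60 at 1 month. It gave 0 to 4 for NiO against C60 at 3 days (0 without C60 array 2, 4 without NiO array 1), 0 to 1 at 1 month (1 without NiO array 1 or 3 of 3 days), 3 to 5 for the NiO effect between times and 0 to 1 for the C60 effect (0 without C60 array 2 or control array 3). Where an alternative leaves out arrays, fewer arrays set the shared spread; otherwise the cause was not tested. Over all alternatives the IL-1-induced list had 7 to 14 genes called for NiO at 3 days (11 as reported, 7 with only the groups compared or without control array 1) and 4 to 7 at 1 month. The type 2 list had 3 to 4 at 3 days and 3 to 5 at 1 month, and the type 1 list 1 to 3 at 1 month. The signalling list had 1 to 7 and 2 to 9, the other inflammasome genes 0 to 5 and 2 to 6, and the further family members 0 to 1 and 0 to 5. Median scaling moved the median of all features at 1 month to 0.21 for NiO and 0.22 for C60, against -0.12 and -0.09. Calls at 1 month then split into 7687 higher and 2233 lower for NiO, against 3008 and 4774, and 6719 and 1826 for C60, against 1840 and 3156. Signal over background limits Il1r1, Il1rl1 and the second Il1rn probe most.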
